A study of Mus musculus with 6 samples.

Results

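The genes described here are 41 interferon response genes of the mouse, chosen by symbol from the gene names on the array. Earlier results of these data were known when they were chosen. All 41 were present on every array, through 54 distinct probes. A gene was tested where a probe was well above background in both animals of at least 1 group, which 40 of the 41 were, among 24553 genes tested in all. Ifit1 was not tested, since its probe was not well above background on any of the 6 arrays. For 35 of the 40 the probe used was well above background on all 6 arrays, and 13 of the 41 had 2 probes.

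RNA came from the whole testes of male mice on postnatal day 0, of the FVB.129/Sv mixed strain, with 1 array per animal and 2 animals per group. All animals carried Vasa-cre, a Cre recombinase driven by the germ cell gene Ddx4 (Vasa). VSKO animals had 1 deleted and 1 floxed allele of Sin3a, a scaffold of histone deacetylase corepressor complexes. HEMI animals had 1 deleted and 1 intact allele, and WT animals had both alleles intact. This promoter is active in germ cells, so the other cells of a VSKO testis carry 1 deleted allele, as they do in HEMI. VSKO against WT therefore compares loss of both alleles in germ cells, on top of 1 deleted allele elsewhere, with intact Sin3a. VSKO and HEMI differ in the second allele of the germ cells, and HEMI and WT in the first allele of every cell. These comparisons share animals, so they are not independent of each other. The 6 arrays shared 1 slide and 1 scan time. WT occupied a row of that slide to itself, so that row and genotype cannot be told apart against WT, and both other genotypes shared the remaining row.

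Interferons are secreted signals of infection. Type I interferons bind a receptor on most cells and activate the factor ISGF3, which contains Stat2 and Irf9 and binds the interferon-stimulated response element (ISRE) in promoters. Type II interferon acts through the gamma-activated site (GAS). The genes they switch on block viral entry, sense or degrade viral RNA, and load peptides for T cells. Many are transcribed at a low level without infection, and in the testis interstitial and Sertoli cells are known to mount this response more readily than germ cells.

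The promoters of 3 genes are shown as examples of ISRE matches before the start of genes whose groups did not overlap in VSKO against HEMI. Isg15 and Bst2 stood in the order VSKO below HEMI below WT without overlap, and Oas3 was the gene called between VSKO and HEMI. Ddx58 stood in the same order as Isg15, and its match begins at 2 bases past the start site, outside the stretch shown. Each is the 250 bases before the transcription start in RefSeq (GRCm38.p6), 5′ to 3′ on the minus strand of the chromosome, with matches to the ISRE pattern, GAAA and again GAAA with any 2 bases between, in capitals. They cover chr4:156200819-156201068 for Isg15, chr8:71537473-71537722 for Bst2 and chr5:120777660-120777909 for Oas3.
Isg15: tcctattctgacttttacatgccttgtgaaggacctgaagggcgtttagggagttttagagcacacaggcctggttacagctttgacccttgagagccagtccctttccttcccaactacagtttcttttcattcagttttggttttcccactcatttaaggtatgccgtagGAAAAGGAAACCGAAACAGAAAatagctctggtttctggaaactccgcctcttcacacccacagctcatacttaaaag
Bst2: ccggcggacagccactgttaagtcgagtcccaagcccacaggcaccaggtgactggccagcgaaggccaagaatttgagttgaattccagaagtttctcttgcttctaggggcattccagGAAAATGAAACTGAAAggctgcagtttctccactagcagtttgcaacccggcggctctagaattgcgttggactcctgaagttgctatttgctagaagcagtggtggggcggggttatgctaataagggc
Oas3: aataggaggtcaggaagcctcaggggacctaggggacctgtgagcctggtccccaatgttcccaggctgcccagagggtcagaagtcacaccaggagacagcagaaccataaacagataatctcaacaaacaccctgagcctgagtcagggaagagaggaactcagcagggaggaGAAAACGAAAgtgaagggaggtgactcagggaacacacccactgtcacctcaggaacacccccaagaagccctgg
In Isg15, 3 overlapping matches run together, the first beginning at -78 from the start site and the last at -66. Bst2 holds 2 overlapping matches, beginning at -130 and -124, and Oas3 holds 1, beginning at -75.

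Promoter sequences matched 32 of the 41 genes. Those of Rtp4, Usp18, Dhx58, Oas2, Mx1, Mx2, Gbp6, Parp9 and Parp14 were not used here. The ISRE pattern, searched on both strands of the 300 bases from 250 before to 50 after a start, lay in at least 1 promoter of 16 of the 32 genes (50%), against 3.99% of 27025 genes in the table. The GAS letters TTCNNNGAA lay in 10 of the 32 (31.2%), against 9.55% of genes. With the shorter ISRE core GAAANNGAA, which lies within the longer pattern, the count was 19 of 32 (59.4%), against 9.76%. Of the 15 tested genes with an ISRE match, 13 were below 0 in VSKO minus HEMI, with a median log2 difference of -0.23. Of the 16 tested genes without one, 11 were below 0, with a median of -0.14. In VSKO minus WT the order of the medians was the reverse, at 0.07 with a match (7 of 15 below 0) and -0.08 without one (11 of 16). A match is a run of letters and was not tied to binding of a factor in these testes.

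Facts on the whole series are brief. Between 59.2% and 64.53% of the non-control spots of an array were well above background, and no spot was saturated. Signals are given as log2 relative to the 75th percentile of their array, so a negative level is dimmer than that percentile. Levels of different probes are not compared as amounts of RNA. Sin3a itself was 0.61 and 0.38 in the VSKO animals, 0.89 and 0.89 in HEMI, and 1.09 and 1.11 in WT, the order of the labels (VSKO minus WT -0.60 ± 0.13, SE, limma adjusted p = 0.134). The markers of testis cells were present: 12 of 12 germ cell, 12 of 12 Sertoli cell and 7 of 7 tested fetal Leydig cell markers were well above background in both animals of every group. In whole testes, fewer cells of a type and less RNA per cell cannot be told apart. With 2 animals per group, only the p-value of the model fitted across all genes is given, and it rests on the spread of these 6 animals.

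The interferon response genes as a group were lowest in the VSKO testes. The genes were chosen with earlier results of these data known, so the shares over all genes are a description and no test. Between VSKO and HEMI, 32 of the 40 tested genes (80%) had a lower mean in VSKO, against 44.6% of all genes. Both VSKO animals were below both HEMI animals for 19 genes (47.5%), against a background of 14.1% of all genes, and above both for 4 genes (10%), against 18.8%. The median difference was -0.22 on the log2 scale, against 0.02 over all genes. Without HEMI animal 1 the mean was lower in VSKO for 26 of the 40 (65%, against 45.3% of all genes). Without VSKO animal 1 it was lower for 29 (72.5%, against 45.1%), and leaving out any other animal gave 75% to 80%. When arrays were scaled to their median, 85% of the group and 60.4% of all genes had a lower mean in VSKO. With that scaling 18.4% of all genes were apart lower and 10.7% apart higher, and the interferon count stayed at 19 lower. Most single differences were small: only Oas3 passed an adjusted p of 0.05 (1 of 40, 2.5%, against 0.143% of all genes called, 0.102% higher and 0.0407% lower), and it was higher in VSKO. At an unadjusted p under 0.05, 6 genes were lower (15%) and 1 higher, against 3.26% and 4.43% of all genes.

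Against WT the same group was mixed. The mean was lower in VSKO for 27 of 40 genes (67.5%), against 51.2% of all genes, and the median was -0.10, against -0.01. Without overlap, 15 genes were lower (37.5%) and 7 higher (17.5%), where all genes gave 23.4% and 22.3%. By limma, 0 of the 40 passed an adjusted p of 0.05, against 0.965% of all genes (0.346% higher and 0.619% lower). The unadjusted threshold was passed by 8 lower and 3 higher genes, against 7.51% and 7.23% of all genes. Isg15 came closest, with an adjusted p of 0.053.

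With 1 allele lost, the median of the group lay near that of all genes, and its counts depended on the scaling. In HEMI minus WT the median was 0.04, against -0.02 over all genes, and 17 of 40 were below 0 (42.5%, against 53.5%). Without overlap 10 genes were higher and 7 lower in HEMI, with 20.9% and 28.4% of all genes as background. When arrays were scaled to their median, 12 of 40 were below 0 (30%, against 47.7% of all genes). With that scaling 13 were higher and 8 lower without overlap, against 20.5% and 21.3% of all genes. Quantile scaling gave 13 of 40 below 0 (32.5%, against 49.7%). No gene of the 40 passed the limma adjusted p of 0.05, against 0.118% of all genes (0.0326% higher and 0.0855% lower), while 1 higher and 2 lower genes passed an unadjusted p under 0.05 (4.76% and 7.68% of all genes).

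**Figure D1:**
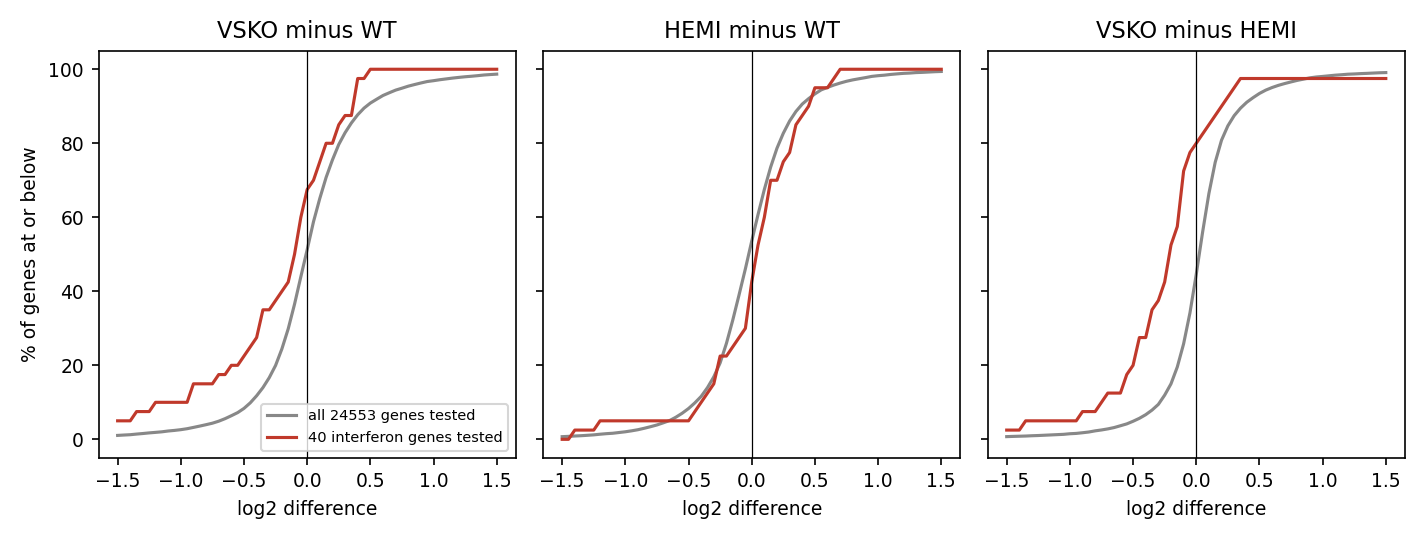
Cumulative share of genes (y axis, percent) at or below each log2 difference (x axis) in the 3 comparisons, for the 40 interferon response genes tested (red) and all 24553 genes tested (grey). In VSKO minus HEMI the red line reaches 80% at a difference of 0 and the grey line 44.6%, and in HEMI minus WT they are at 42.5% and 53.5%.

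Taking all 6 animals at once, both VSKO animals were below the 4 others for 12 of the 40 genes (30%), against 7.25% of all genes. The 12 were Bst2, Ddx58, Gbp6, Irf7, Irf9, Isg15, Mx1, Oas2, Oasl1, Rtp4, Usp18 and Xaf1. Among them Mx1 had passed the filter only through HEMI. For Gbp6 the gap was narrow, with VSKO animal 2 at -3.32 and HEMI animal 1 at -3.31. On the other probe of Xaf1, VSKO animal 2 was the highest of the 6, at -1.55. Both VSKO animals were above the 4 others for 4 genes, Oas3, Psmb8, Psmb9 and Tap1 (10%, against 8.58%). A graded order, VSKO below HEMI below WT with no overlap, held for 3 genes, Isg15, Bst2 and Ddx58 (7.5%, against 2.46%), and the reverse order for 0 (against 2.57%). Both HEMI animals were above the 4 others for 7 genes, Eif2ak2, Ifit3, Irf1, Irf7, Irgm1, Parp9 and Xaf1 (17.5%, against 5.2%), and below them for 1, Oas3 (2.5%, against 8.57%). These counts over all 6 animals were added after the values were seen.

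**Figure D2:**
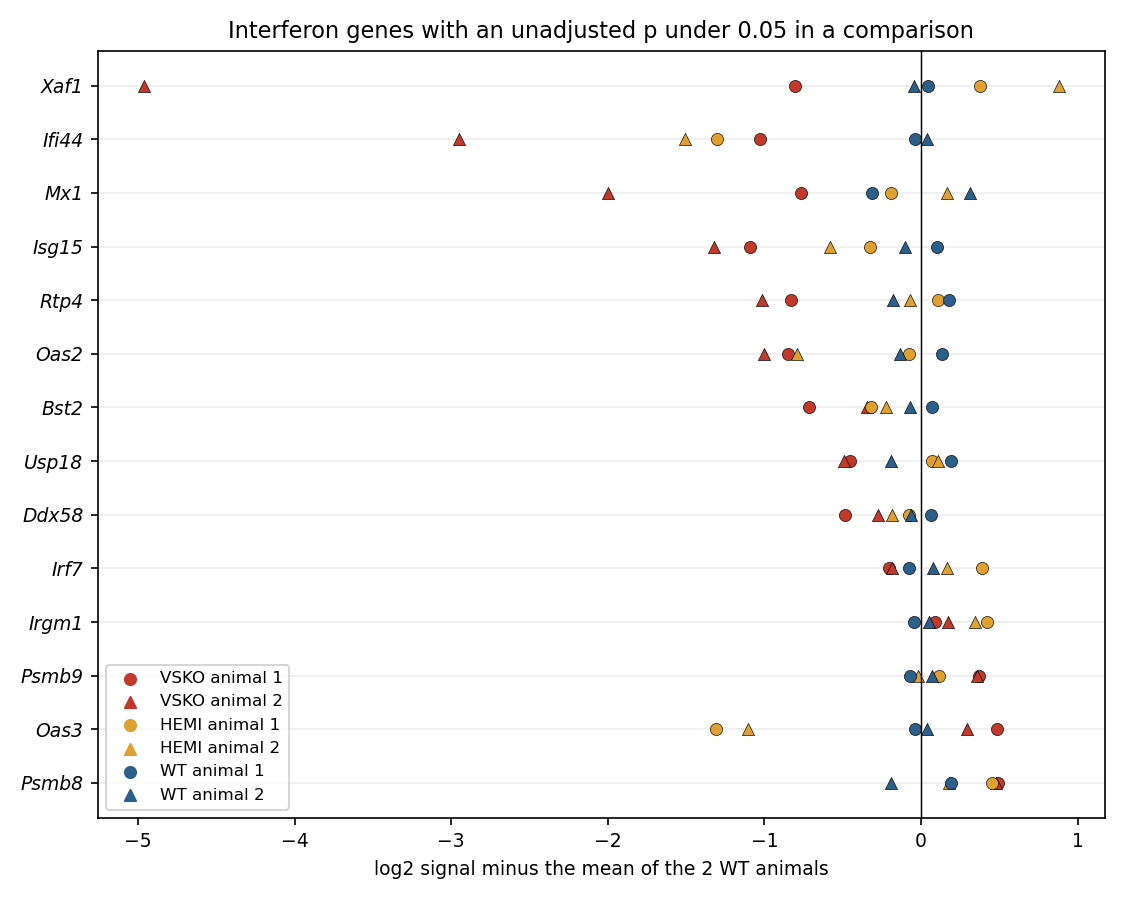
Log2 signal minus the mean of the 2 WT animals (x axis) for the 14 interferon response genes with an unadjusted p under 0.05 in a comparison, with 1 point per animal (colour for group, shape for animal). For Isg15, Rtp4 and Usp18 both VSKO animals lie left of the 4 others, and for Oas3 both HEMI animals lie left of the 4 others.

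The genes of signalling and feedback lay in 1 direction. All 8 tested (Isg15, Rtp4, Usp18, Irf1, Irf7, Irf9, Stat2 and Trim25) had a lower mean in VSKO than in WT and in HEMI, with medians of -0.24 and -0.43. In VSKO against HEMI, 7 of the 8 were lower without overlap (87.5%, against 14.1% of all genes), all but Trim25, and 5 of the 8 against WT (62.5%, against 23.4%). None passed an adjusted p of 0.05 in any comparison by limma.

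Isg15 encodes a ubiquitin-like protein that is conjugated to other proteins and is among the most strongly induced interferon targets. Its log2 signal was -1.11 and -1.34 in VSKO, -0.35 and -0.60 in HEMI, and 0.08 and -0.12 in WT. The 3 groups did not overlap and stood in the order of intact Sin3a alleles. The differences were -1.21 ± 0.16 (SE) for VSKO minus WT, -0.75 ± 0.16 for VSKO minus HEMI (adjusted p = 0.254) and -0.46 ± 0.16 for HEMI minus WT (adjusted p = 0.364). The first had an adjusted p of 0.053. Over the alternatives that left out no single animal it ranged from 0.0233 to 0.116, and 5 of them called it. Of these 5, median scaling and the series table are the same analysis. A second Isg15 probe gave -1.38, -1.13 and -0.25 for the same differences in that order. The probe used lies at chr4:155573649-155573708 on the minus strand (mm9).

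Rtp4 encodes a receptor transporter protein that also dampens the interferon response. It was -0.93 and -1.11 in VSKO, 0.01 and -0.16 in HEMI, and 0.09 and -0.28 in WT. Both VSKO animals lay below the 4 others, while HEMI and WT overlapped. The differences were -0.93 ± 0.17 against WT (adjusted p = 0.106) and -0.94 ± 0.17 against HEMI (adjusted p = 0.176).

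Usp18, the protease that removes Isg15 from proteins and restrains receptor signalling, showed a smaller gap of the same shape. The animals were at -3.31 and -3.34 in VSKO, -2.78 and -2.75 in HEMI, and -2.66 and -3.04 in WT. VSKO was again below the rest, by 0.56 ± 0.16 against HEMI (log2, adjusted p = 0.412) and 0.47 ± 0.16 against WT (adjusted p = 0.282).

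Irf7, the factor that amplifies type I interferon production, was -3.95 and -3.93 in VSKO, -3.35 and -3.57 in HEMI, and -3.82 and -3.67 in WT. HEMI was highest and VSKO lowest, without overlap, with a VSKO minus HEMI difference of -0.48 ± 0.14 (adjusted p = 0.415). Irf9 and Stat2, subunits of ISGF3, differed by -0.36 ± 0.16 and -0.23 ± 0.17 in that comparison. Irf1, a target of both interferon types, differed by -0.38 ± 0.19. Trim25, the ubiquitin ligase that activates the RNA sensor Ddx58, had the brightest probe of the 40 and hardly varied: 4.64 and 4.54 in VSKO, 4.51 and 4.78 in HEMI, and 4.72 and 4.64 in WT.

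**Figure D3:**
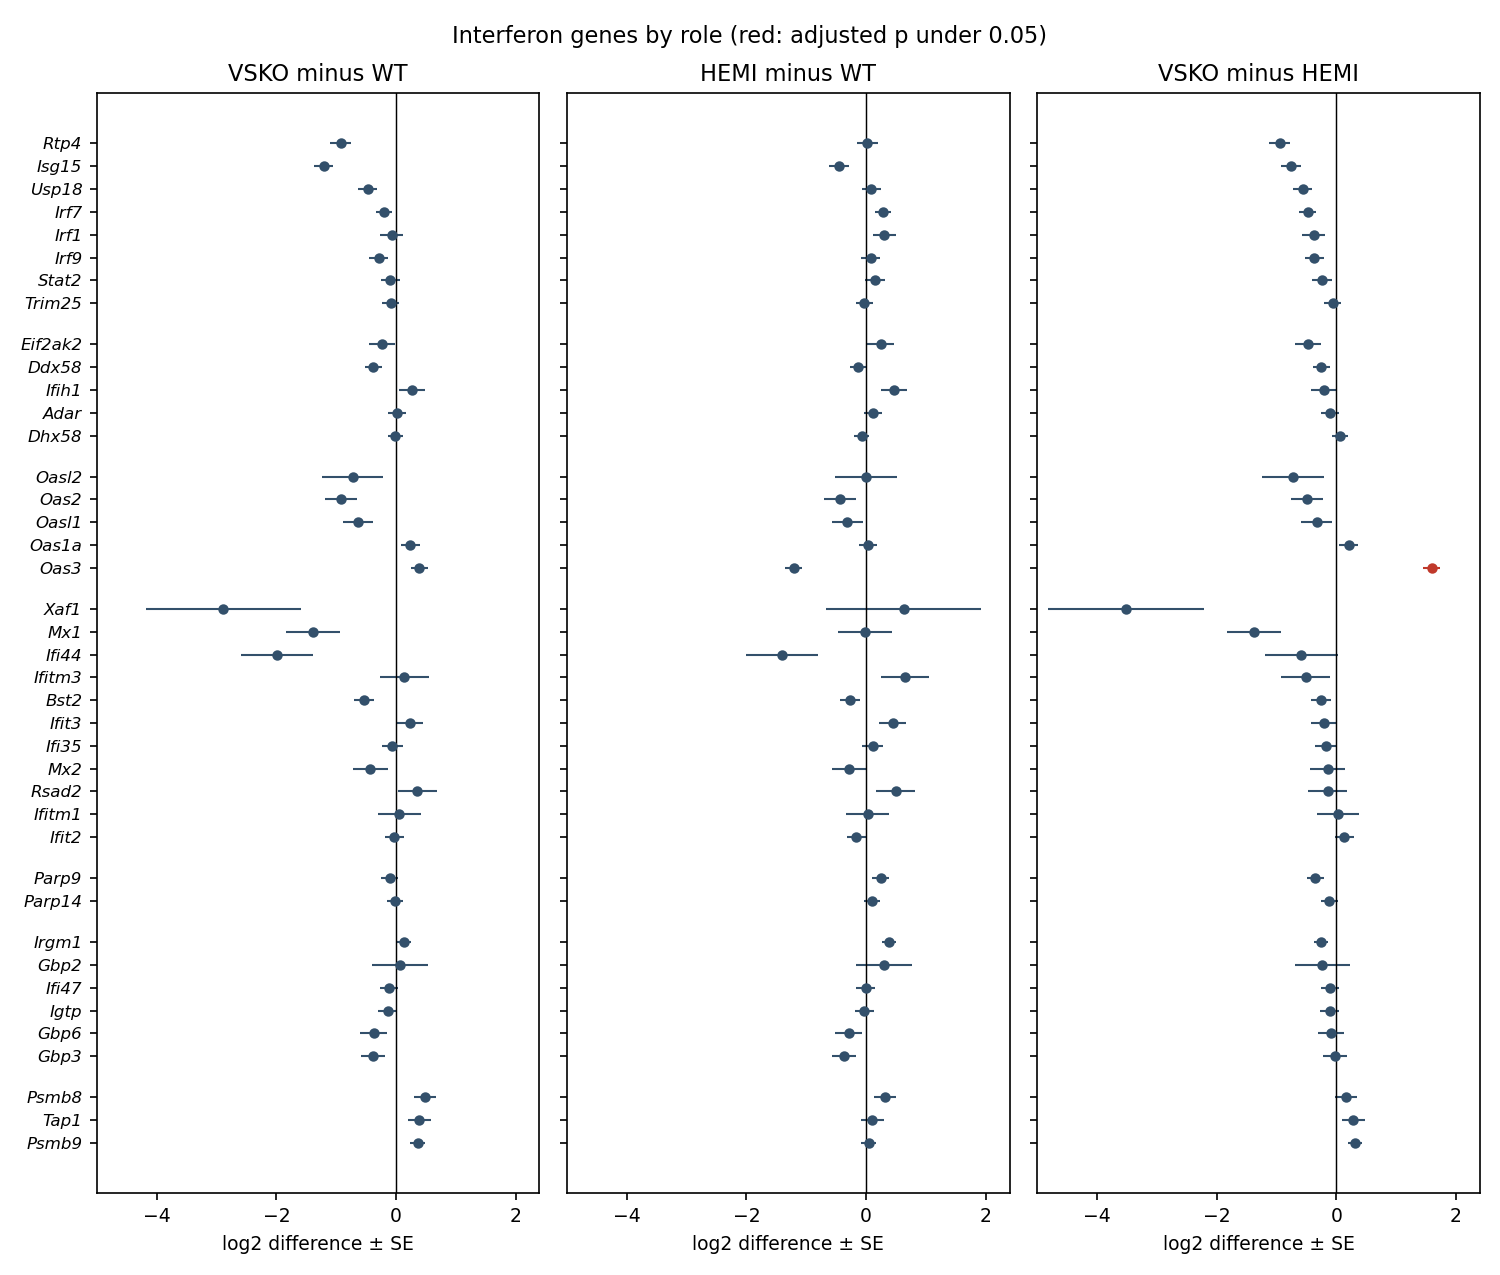
Log2 differences (x axis, points) with their SE (bars) for the 40 genes tested, grouped by role from top to bottom: signalling and regulation, RNA sensors, OAS family, antiviral effectors, PARP family, inducible GTPases and antigen processing. Oas3 in VSKO minus HEMI is the only point with an adjusted p under 0.05 (red), and the 3 antigen processing genes at the bottom lie right of 0 in VSKO minus WT and VSKO minus HEMI.

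Among the antiviral effectors, the larger differences sat on probes near background or rested on 1 animal. Of 11 tested, 7 had a lower mean in VSKO than in WT (63.6%) and 9 in VSKO than in HEMI (81.8%), and 4 were lower without overlap in each (36.4%, against 23.4% and 14.1% of all genes). Bst2 (tetherin), which holds budding virus at the cell surface, was bright on every array, at 2.10 and 2.47 in VSKO, 2.5 and 2.59 in HEMI, and 2.88 and 2.75 in WT. The groups did not overlap, although the higher VSKO animal nearly reached HEMI, and VSKO minus WT was -0.53 ± 0.17 (adjusted p = 0.25).

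Mx1, a GTPase that blocks influenza replication, was -5.81 and -7.05 in VSKO, -5.24 and -4.88 in HEMI, and -5.36 and -4.74 in WT. It was not well above background in either VSKO animal and was so in 1 of the 2 WT animals and in both HEMI animals. It therefore passed the filter only through HEMI, and its lower level in VSKO than in HEMI is no independent support. The VSKO arrays were set at the dimmest level that counts as well above background. Mx1 was then at least 1.55-fold lower in VSKO than in HEMI. Against WT the same step gave 1.57-fold, which is no bound, since the WT mean includes 1 array not well above background. Both values hold only for the processed signal. The fitted log2 differences were -1.38 ± 0.45 against WT (limma adjusted p = 0.264) and -1.37 ± 0.45 against HEMI (adjusted p = 0.519). With another background correction (normexp) they were -0.40 and -0.31.

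Ifi44, an interferon-induced cytoplasmic protein, was -4.16 and -6.08 in VSKO, -4.44 and -4.64 in HEMI, and -3.17 and -3.10 in WT. Both WT animals were above the 4 others, and the lower VSKO animal was not well above background. The VSKO minus WT difference was -1.99 ± 0.61 (adjusted p = 0.239), and it depended on which VSKO animal was used. It was -1.03 (adjusted p = 0.145) without VSKO animal 2. Without VSKO animal 1 it was -2.95 (adjusted p = 0.0287), where VSKO rests on 1 array that was not well above background and is assumed to vary like the other groups, so that value is no measured level. With normexp it was -0.74 (adjusted p = 0.0565).

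Xaf1, a pro-apoptotic antagonist of the apoptosis inhibitor Xiap, gave the widest spread. On the probe used it was -1.31 and -5.47 in VSKO, -0.13 and 0.37 in HEMI, and -0.47 and -0.55 in WT. One VSKO animal lay far below the other, and that array was not above background. The VSKO minus HEMI difference of -3.51 ± 1.30 (adjusted p = 0.59) was not seen on its other probe, which gave 0.08, with -2.53 and -1.55 in VSKO, -1.59 and -2.65 in HEMI, and -1.96 and -2.02 in WT. On the probe used it was -1.43 (adjusted p = 0.301) without VSKO animal 2, -2.29 with normexp, and -1.72 for the mean of both probes. Without VSKO animal 1 it was -5.59 (adjusted p = 0.0253), which again rests on 1 array that was not above background and on the spread of the other groups.

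The other effectors (Ifit2, Ifit3, Ifi35, Mx2, Rsad2, Ifitm1 and Ifitm3) differed by between -0.51 and 0.14 in VSKO minus HEMI, none with an unadjusted p under 0.05. Ifitm1, which restricts viral entry at membranes, was bright and uneven within groups: 2.73 and 3.69 in VSKO, 3.44 and 2.93 in HEMI, and 3.07 and 3.25 in WT. Its groups overlapped in every comparison.

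Of the 5 genes for RNA sensors and their relatives, 4 had a lower mean in VSKO than in HEMI, with a median of -0.20. Ddx58 encodes RIG-I, a sensor of viral RNA ends. It was -0.01 and 0.20 in VSKO, 0.40 and 0.29 in HEMI, and 0.54 and 0.41 in WT, in the graded order and without overlap. VSKO minus WT was -0.38 ± 0.14 (adjusted p = 0.307), and the other Ddx58 probe gave -0.47. Ifih1 (MDA5), the sensor of long double-stranded RNA, was instead higher than WT in both mutant groups without overlap, by 0.27 ± 0.22 in VSKO and 0.47 ± 0.22 in HEMI (adjusted p = 0.615 and 0.462). Adar, the editing enzyme that marks endogenous RNA as self, differed on the probe used by 0.02, 0.12 and -0.10 in VSKO minus WT, HEMI minus WT and VSKO minus HEMI, and on its other probe by -0.11, 0.13 and -0.24. Dhx58, a regulator of these sensors, differed by -0.01, -0.07 and 0.06. Eif2ak2 (PKR), the kinase that halts translation on double-stranded RNA, differed by -0.48 ± 0.22 in VSKO minus HEMI.

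The OAS enzymes, which make the second messenger that activates RNase L, and their relatives did not move together. Oas2 was -3.34 and -3.49 in VSKO, -2.57 and -3.29 in HEMI, and -2.36 and -2.63 in WT. Both VSKO animals were below the 4 others, and VSKO minus WT was -0.92 ± 0.26 (adjusted p = 0.218). The OAS-like genes lay the same way against WT, at -0.63 ± 0.26 for Oasl1 and -0.72 ± 0.51 for Oasl2, and Oas1a the other way, at 0.24 ± 0.15.

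Oas3 had its own pattern. It was -4.41 and -4.60 in VSKO, -6.20 and -6.00 in HEMI, and -4.93 and -4.86 in WT. VSKO was highest, WT close below it, and HEMI lowest and not well above background in either animal. With the HEMI arrays set in the same way, Oas3 was at least 2.46-fold higher in VSKO than in HEMI (fitted difference 1.59 ± 0.14, limma adjusted p = 0.0485) and at least 1.88-fold higher in WT than in HEMI (fitted difference -1.21 ± 0.14 for HEMI minus WT, adjusted p = 0.0713). The adjusted p of VSKO minus HEMI ranged from 0.0476 to 0.496 over 16 alternatives and stayed under 0.05 in 4 of them. Of these 4, median scaling and the series table are the same analysis. It was above 0.05 when any 1 of the 6 animals was left out. With another background correction (normexp) that difference was 0.38 and VSKO minus WT was -0.02, so the fold bounds hold only for the processed signal. The probe lies at chr5:121203598-121203657 on the minus strand (mm9).

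Interferon-inducible GTPases, which attack the vacuoles of intracellular microbes, lay close together in VSKO and HEMI. All 6 (Ifi47, Gbp2, Gbp3, Gbp6, Igtp and Irgm1) had a lower mean in VSKO than in HEMI, with a median of -0.11 and 2 without overlap (33.3%, against 14.1% of all genes), and the median against WT was -0.13. Irgm1 was -0.31 and -0.23 in VSKO, 0.02 and -0.06 in HEMI, and -0.45 and -0.35 in WT. HEMI was highest without overlap, and HEMI minus WT was 0.38 ± 0.12 (adjusted p = 0.313). Its other probe placed HEMI highest as well. Of the antiviral ADP-ribosyltransferase family, Parp9 and Parp14 were lower in VSKO than in HEMI without overlap, by 0.35 ± 0.14 and 0.12 ± 0.14 on the log2 scale.

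The 3 antigen processing genes of the group, which lie at 1 locus, were higher in VSKO. Psmb8 and Psmb9 encode catalytic subunits of the immunoproteasome and Tap1 a subunit of the transporter that carries peptides to MHC class I. For all 3, both VSKO animals were above both WT animals and both HEMI animals, with medians of 0.39 and 0.29 (22.3% and 18.8% of all genes were higher without overlap). The wider antigen presentation list did not share this direction against HEMI. Psmb8 was -1.74 and -1.75 in VSKO, -1.78 and -2.05 in HEMI, and -2.04 and -2.42 in WT, a VSKO minus WT difference of 0.49 ± 0.18 (adjusted p = 0.321). Psmb9 was -0.95 and -0.96 in VSKO, -1.20 and -1.33 in HEMI, and -1.38 and -1.24 in WT, a difference of 0.36 ± 0.12 (adjusted p = 0.284). Tap1 differed by 0.39 ± 0.19 (adjusted p = 0.424). The 3 genes are neighbours in the MHC region of chromosome 17, and the RefSeq promoter windows of Psmb9 (chr17:34187281-34187580) and Tap1 (chr17:34187306-34187605, GRCm38.p6) overlap on opposite strands. They therefore share a locus, and none of the 3 held an ISRE match.

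Where a gene had 2 probes that passed the filter, the probes gave the same sign for 7 of 10 genes in each comparison. Those that differed were Adar, Ifitm1 and Parp9 in VSKO minus WT, Gbp6, Ifitm1 and Xaf1 in HEMI minus WT, and Ifitm1, Parp9 and Xaf1 in VSKO minus HEMI. For Gbp6 the probe used was -3.35 and -3.32 in VSKO, -3.31 and -3.19 in HEMI, and -2.66 and -3.26 in WT. The other Gbp6 probe was -5.74 and -5.15 in VSKO, -4.08 and -4.13 in HEMI, and -4.91 and -4.57 in WT, so that HEMI rather than WT was highest. Parp9 was -0.60 and -0.49, -0.09 and -0.30, and -0.54 and -0.34 in VSKO, HEMI and WT on the probe used. On its other probe VSKO minus HEMI was 0.37 in place of -0.35.

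**Figure D4:**
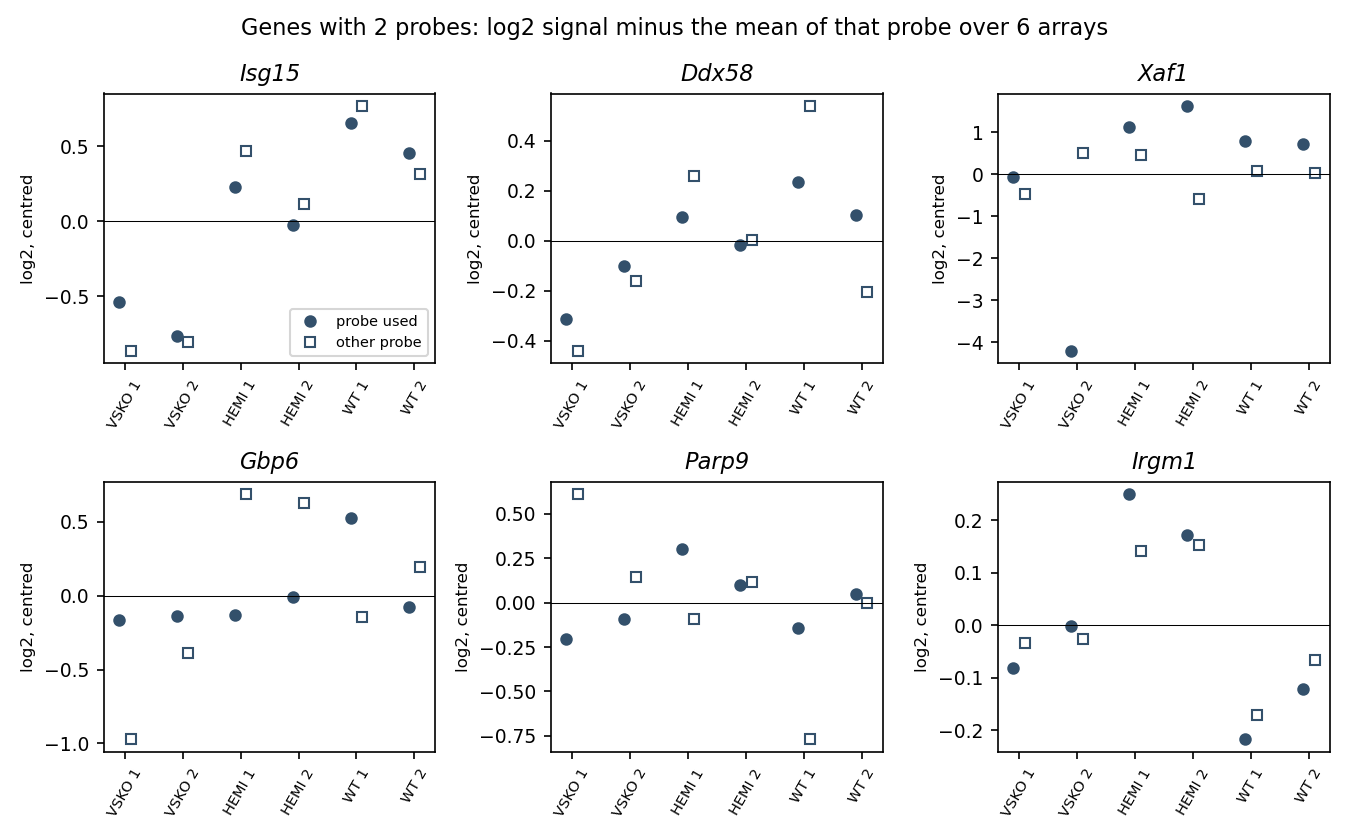
Log2 signal in each animal, centred on the mean of that probe over 6 arrays (y axis), for 6 genes with 2 probes (filled circles: probe used; open squares: other probe). Both probes of Isg15 place the VSKO animals lowest, whereas those of Xaf1 part at the second VSKO animal.

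Upstream and downstream parts of the pathway gave few calls. Of the interferon genes themselves 9 of 16 on the array were tested and 0 passed in any comparison by limma. In VSKO minus WT 7 of the 9 were below 0 (77.8%, against 51.2% of all genes), with a median of -0.25. Without overlap 55.6% were lower and 11.1% higher, against 23.4% and 22.3% of all genes. At an unadjusted p under 0.05 only Ifnk, an interferon of keratinocytes, differed from WT in VSKO, at -4.30 and -1.59 in VSKO, -3.20 and -4.14 in HEMI, and -6.46 and -6.55 in WT, where it was not well above background. The VSKO mean was at least 5.19-fold higher than WT (limma adjusted p = 0.174), with the VSKO animals far apart. Ifnk passed the filter only through VSKO and HEMI, so its higher level there is no independent support. None of the 6 receptor genes tested passed, adjusted or unadjusted. Of 13 genes of signal transduction 0 passed the adjusted threshold, and at an unadjusted p under 0.05 there were 0 in VSKO minus WT and 1 in each of the others.

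Among 17 sensor and adaptor genes 0 passed adjusted, and 0 passed unadjusted in VSKO minus WT or VSKO minus HEMI. Ifi204, a DNA sensor, was -1.56 and 3.04 in VSKO, -1.14 and -1.75 in HEMI, and 3.09 and 2.62 in WT. One VSKO animal was at the WT level and the other at the HEMI level. Of 17 antigen presentation genes outside the group, 14 were below 0 in VSKO minus HEMI (82.4%, against 44.6% of all genes), with a median of -0.09. Without overlap 35.3% were lower and 11.8% higher, against 14.1% and 18.8% of all genes. In VSKO minus WT 9 of the 17 were below 0, with a median of -0.0026. In HEMI minus WT 6 were below 0 (35.3%, against 53.5% of all genes), with a median of 0.11. Without overlap 64.7% were higher and 29.4% lower in HEMI, against 20.9% and 28.4% of all genes. In that list only Calr, a chaperone of the peptide-loading complex, fell in VSKO against WT, by 1.07 ± 0.14 on the log2 scale (limma adjusted p = 0.0481). It was equally low in HEMI, at 3.65 and 3.81 against 4.76 and 4.80 in WT.

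A wider list of 61 other interferon-stimulated genes showed the lower level in VSKO than in HEMI to a smaller degree. Of these, 42 were below 0 (68.9%, against 44.6% of all genes), 24.6% were lower without overlap (against 14.1%), and the median was -0.07. In VSKO minus WT the list was even, with 31 below 0 and a median of -0.02. In HEMI minus WT 22 of the 61 were below 0 (36.1%, against 53.5% of all genes), with a median of 0.08. Without overlap 32.8% were higher and 16.4% lower in HEMI, against 20.9% and 28.4% of all genes. Gbp2b, an inducible GTPase, was the one gene that fell in VSKO against WT, where it was at least 8.67-fold lower (limma adjusted p = 0.0442). It was -2.78 and -2.89 in WT and not well above background in any VSKO or HEMI animal. It therefore passed the filter only through WT.

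Summarised per animal, the centred median of the 40 genes was -0.17 and -0.09 in VSKO, 0.11 and -0.01 in HEMI, and 0.06 and 0.03 in WT. The VSKO animals were the lowest of the 6, and HEMI and WT overlapped. The pooled standard deviation within groups was 0.06, so the gap between the nearest VSKO and HEMI animals was of about that size.

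Markers of immune cells moved between groups too. Neutrophil markers (9 of 9 tested) had centred medians of 1.18 and 1.14 in VSKO, -0.32 and -0.66 in HEMI, and -0.79 and -0.45 in WT. Against WT, 6 of the 9 were higher in VSKO without overlap (66.7%, against 22.3% of all genes), and S100a8 (2.00 ± 0.17, adjusted p = 0.0276) and S100a9 (2.09 ± 0.18, adjusted p = 0.0276) rose. Elane, Mpo and Csf3r, which mark earlier stages and the lineage as a whole, differed by -0.12, -0.49 and 0.13. Lymphocyte and NK cell markers were below 0 in VSKO minus WT for 9 of 10 tested (90%, against 51.2% of all genes), and Cd2 fell by 2.12 ± 0.21 (limma adjusted p = 0.0314). In HEMI minus WT 8 of the 10 were below 0 (80%, against 53.5%), and in VSKO minus HEMI 5 (50%, against 44.6%). The medians were -0.14, -0.24 and 0.0021 in that order. Macrophage markers spread widely within groups, from -0.16 to 0.29 in VSKO, -0.56 to 0.52 in HEMI and -0.05 to 0.20 in WT.

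Among testis cells, germ cell markers were below 0 for 11 of 12 against WT in VSKO and also in HEMI, with medians of -0.34 and -0.25, and were even between VSKO and HEMI (median -0.02). Fetal Leydig cell markers had medians of -0.89 and -0.72 against WT. Of the 7 tested, 1 was called lower in VSKO than in WT (limma adjusted p = 0.0426), against 0.619% of all genes. The part of the testis cell markers in the interferon differences, and that of the immune markers, was not tested.

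**Figure D5:**
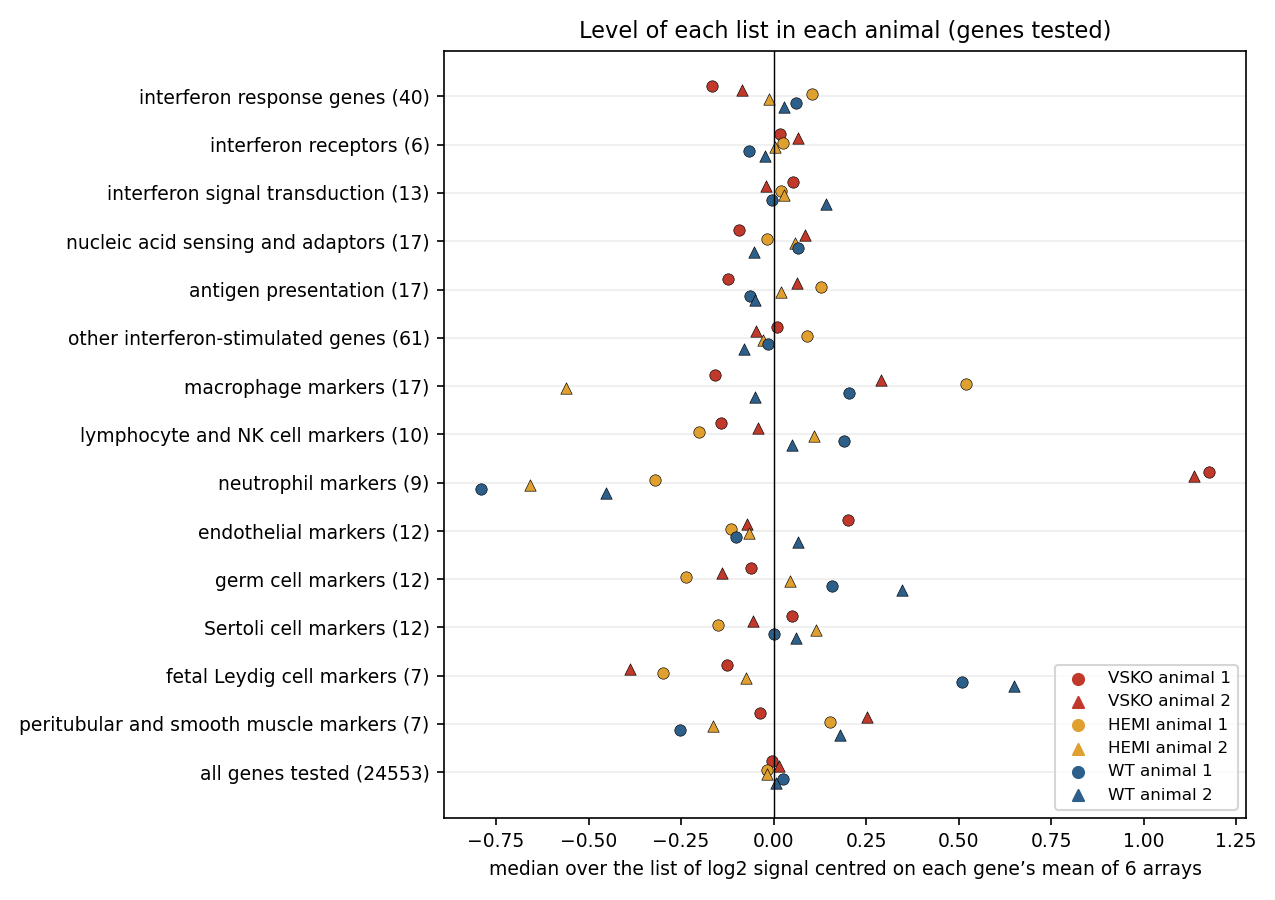
Median of the log2 signal centred on each gene's mean over 6 arrays (x axis) for each gene list, with 1 point per animal and the number of genes tested in brackets. The VSKO animals are lowest for the interferon response genes (-0.17 and -0.09) and highest for the neutrophil markers (1.18 and 1.14).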

How the data were processed

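Total RNA of 6 whole testes was labelled with Cy3 and hybridised to 1-colour Agilent mouse arrays. The deposited scanner files hold, per the file headers, a processed intensity for each of 62976 spots (background-subtracted, linear scale), the mean and background intensities, and 0 or 1 quality flags, which are no measure of signal. Feature Extraction has version 10.7.3.1 per the file headers and 8.5.1.1 per the submitters' processing notes. The authors' series table holds an intensity equal to the processed signal divided by the array's median, within 0.001%. No further normalization is named in the sources used here.

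Here each array's 75th percentile over 59305 non-control spots was subtracted from its log2 processed intensity. Spots marked as outliers were dropped and repeat spots of a probe averaged. A probe was kept when well above background on both arrays of a group, and a gene was read from its brightest probe. Probe names were updated through RefSeq (GRCm38.p6), probe positions are mm9. All 6 arrays entered 1 fit of group means (limma 3.58.1, R 4.3.3, with 3 residual and 2.25 prior degrees of freedom), with Benjamini-Hochberg adjustment over 24553 genes and a threshold of 0.05. The fit was tested on simulated data. Bounds on folds set a dim group to the lowest signal well above background on its arrays, and hold only for the processed signal. A p-value beside a bound is that of the fitted difference. The number of arrays limits the precision.

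Named genes were those with an unadjusted p under 0.05 in a comparison, those whose probes differ in direction, and the 3 brightest. Other genes of the group, and promoters, were given for their role after values were seen. From other lists the genes passing an adjusted p of 0.05 were named first, then up to 3 a list by p. The fetal Leydig cell marker that passed was given as a count only. The genes and lists were chosen with earlier results of these data known. Alternatives were other scalings, background corrections, filters, probe rules, gene names and fits, a replicate block, and leaving out each animal. They are not all distinct. Median scaling and the series table gave the same results, and a fit of only the groups compared equals leaving out an animal of the third group.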

Additional observations from a re-analysis of the deposited data

How the results depend on the processing

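With 2 animals per group, few single genes can pass a test. The count of interferon genes called in VSKO minus WT was 0. It was 1 (Isg15) with median scaling, the series table, normexp background, an intensity trend, or probes above background on all 6 arrays. Isg15 was not called when any animal was left out. Calls of other genes without VSKO animal 1, Ifi44 among them, rest on a lone VSKO animal assumed to vary like the other groups. In HEMI minus WT the count was 0 under every alternative run. In VSKO minus HEMI it was 1 (Oas3), and 0 with quantile scaling, normexp, no filter, the filter on all 6 arrays, an intensity trend or the 2 groups alone, and 0 to 1 when an animal was left out, where the 1 was Xaf1. The replicate numbers did not pair the animals (correlations of deviations -0.03, -0.01 and -0.04), and with a replicate block 0 genes were called there, and 19, 0 and 0 of all genes in the 3 comparisons in place of 237, 29 and 35. The median in VSKO minus HEMI was -0.22 as reported, -0.29 with median scaling or the series table, -0.17 with normexp and -0.19 with the filter on all 6 arrays. In VSKO minus WT the median ran from -0.21 (without VSKO animal 2) to -0.10 when an animal was left out, and was -0.09 with normexp or the filter on all 6 arrays. Signs turned for Oas3 in VSKO minus WT with normexp (-0.0198), for Xaf1 in VSKO minus HEMI with the filter on all 6 arrays (0.079), which replaces its probe, for the level of WT animal 1 with median scaling or the series table (-0.0033), and for that of HEMI animal 2, -0.0131, with the same scalings (0.0908), quantile scaling (0.0552) or the mean of probes (0.0355). Apart from Xaf1 the cause was not tested.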
